A study of Arabidopsis thaliana with 12 samples.

Results

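Mitosis and cytokinesis genes were followed in Arabidopsis thaliana seedlings that make altered forms of MUTE, a basic helix-loop-helix transcription factor of the stomatal lineage. The 43 genes were named by locus: 9 B-type cyclins, 2 A1-type cyclins, 4 genes for CDKB2 kinases and CKS subunits, 7 regulators of the anaphase-promoting complex (APC), 3 spindle checkpoint genes, 3 Aurora kinases, 5 spindle and centromere genes, 8 phragmoplast and cytokinesis genes and 2 MYB3R factors. All 43 were among the 23071 entries of the deposited table that matched a gene, and all 43 passed the filter on low counts that left 22636 genes to test. The lowest count of any member in any library was 187.

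Whole seedlings were sampled 2 days after germination from 4 transgenic lines. Every line is homozygous for its transgene in the mute-3 background, and every transgene is driven by the MUTE promoter. MUTEv5#2 and MUTEv5#5 are separate lines of the same allele, with the change R10W. MUTEPPP#3 carries H3P, E7P and R11P (residue numbers as the submitters give them), and MUTE line 1 carries the wild-type protein and is the reference. The submitters describe line 2 of MUTEv5 as moderate, with clustered stomata, and line 5 as severe, with arrested lineages. MUTEPPP and the wild-type allele are represented by 1 line each, so allele and line cannot be told apart for them. Each line had 3 biological replicates of 50 pooled seedlings, grown on 1% sucrose at 21 °C under 16 h of light and 8 h of dark.

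Plant cells enter mitosis when B-type and A1-type cyclins activate cyclin-dependent kinases such as CDKB2, and they leave it when the APC marks the cyclins for destruction. Plant cytokinesis then builds a new wall from the inside outward on the phragmoplast, a microtubule array that carries vesicles to the division plane. Many of these genes are transcribed together late in the cell cycle through the mitosis-specific activator (MSA) element, which MYB3R factors bind. In the stomatal lineage MUTE ends the asymmetric divisions of meristemoids and sets up the symmetric division of the guard mother cell, and it is known to switch on cell cycle genes for that division.

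The core of the MSA element, AACGG, which reads as CCGTT from the opposite strand, stood in the 250 bases upstream of the annotated gene start in 25 of the 43 members, or 58.1%. The same core stood in 5645 of the 27443 windows of that length upstream of protein-coding genes, or 20.6%. The longer form CTAACGG, or its counterpart spelled CCAACGG, contains the core. Read on both strands, either of these forms stood in 11 members (25.6%) and in 709 of all the windows (2.58%). The core was present upstream of 6 of 9 B-type cyclins, 7 of 8 phragmoplast genes and 2 of 7 APC regulators. Windows upstream of the B1-type cyclins CYCB1;1 and CYCB1;2, chosen among those with the core, are shown as classical MSA genes. Of the other B1-type cyclins CYCB1;3 also held 3 cores, and CYCB1;4 held 0 in its window. The windows of the 7 members called against MUTE follow, and all of these hold the core. The sequences are RefSeq TAIR10.1, written 5′ to 3′ toward the gene start, and capitals mark the core on either strand.
CYCB1;1: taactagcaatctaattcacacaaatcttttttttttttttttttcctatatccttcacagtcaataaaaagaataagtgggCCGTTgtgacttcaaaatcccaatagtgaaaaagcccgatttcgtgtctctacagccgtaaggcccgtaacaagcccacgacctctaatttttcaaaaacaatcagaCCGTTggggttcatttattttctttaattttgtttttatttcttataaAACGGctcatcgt
CYCB1;2: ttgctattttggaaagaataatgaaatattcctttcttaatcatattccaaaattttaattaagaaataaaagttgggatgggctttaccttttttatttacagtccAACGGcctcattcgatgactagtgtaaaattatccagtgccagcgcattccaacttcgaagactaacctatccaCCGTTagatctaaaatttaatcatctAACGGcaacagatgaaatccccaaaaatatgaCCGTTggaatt
CYCB2;1: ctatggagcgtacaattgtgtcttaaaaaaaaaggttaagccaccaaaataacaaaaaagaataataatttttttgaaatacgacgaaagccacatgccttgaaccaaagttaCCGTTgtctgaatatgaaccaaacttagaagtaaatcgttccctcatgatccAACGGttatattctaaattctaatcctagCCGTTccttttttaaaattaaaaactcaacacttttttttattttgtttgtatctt
CYCB2;3: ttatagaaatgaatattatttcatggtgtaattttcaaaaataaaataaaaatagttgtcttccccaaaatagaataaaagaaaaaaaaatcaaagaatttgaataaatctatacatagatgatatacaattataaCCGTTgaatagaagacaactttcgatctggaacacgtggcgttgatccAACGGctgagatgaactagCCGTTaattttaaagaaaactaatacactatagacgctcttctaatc
CDKB2;2: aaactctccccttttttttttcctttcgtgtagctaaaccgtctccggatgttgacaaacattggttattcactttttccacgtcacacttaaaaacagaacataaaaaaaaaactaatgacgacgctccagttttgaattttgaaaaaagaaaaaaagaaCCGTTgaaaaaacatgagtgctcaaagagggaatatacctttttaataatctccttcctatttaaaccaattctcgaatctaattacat
OSD1: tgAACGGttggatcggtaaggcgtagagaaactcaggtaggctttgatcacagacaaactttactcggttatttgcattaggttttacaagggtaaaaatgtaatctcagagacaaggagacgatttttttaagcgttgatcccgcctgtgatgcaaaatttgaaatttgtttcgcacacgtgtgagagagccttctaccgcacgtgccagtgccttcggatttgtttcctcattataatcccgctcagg
UVI4: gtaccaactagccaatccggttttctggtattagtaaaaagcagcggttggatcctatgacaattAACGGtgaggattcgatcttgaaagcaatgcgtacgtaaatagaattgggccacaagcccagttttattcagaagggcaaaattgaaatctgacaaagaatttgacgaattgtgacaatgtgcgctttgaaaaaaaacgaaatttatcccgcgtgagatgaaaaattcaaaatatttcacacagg
BUB3.1: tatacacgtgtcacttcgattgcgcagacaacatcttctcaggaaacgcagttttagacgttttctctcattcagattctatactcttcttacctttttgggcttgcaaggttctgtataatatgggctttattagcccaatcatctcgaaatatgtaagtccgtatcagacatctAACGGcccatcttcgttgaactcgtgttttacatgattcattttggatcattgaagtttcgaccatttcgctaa
TETRASPORE: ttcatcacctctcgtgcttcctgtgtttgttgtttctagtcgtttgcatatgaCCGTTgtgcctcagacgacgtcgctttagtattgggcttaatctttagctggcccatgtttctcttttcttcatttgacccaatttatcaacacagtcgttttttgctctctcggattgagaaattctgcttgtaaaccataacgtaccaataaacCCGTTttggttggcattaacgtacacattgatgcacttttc

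The windows lie at chr4:17624309-17624558 (minus strand) for CYCB1;1, chr5:1861704-1861953 (minus strand) for CYCB1;2, chr2:7663805-7664054 (plus strand) for CYCB2;1 and chr1:7137829-7138078 (minus strand) for CYCB2;3. Those of the other members lie at chr1:7294747-7294996 (minus strand) for CDKB2;2, chr3:21426035-21426284 (plus strand) for OSD1, chr2:17603706-17603955 (minus strand) for UVI4, chr3:6805372-6805621 (plus strand) for BUB3.1 and chr3:15190536-15190785 (plus strand) for TETRASPORE. CYCB1;2 held 4 cores, all within the longer forms, CYCB1;1, CYCB2;1 and CYCB2;3 held 3 cores each, TETRASPORE held 2, and CDKB2;2, OSD1, UVI4 and BUB3.1 held 1 each. In OSD1 the core began 248 bases before the gene start, near the far edge of the window, whereas in CYCB1;2 the nearest began 7 bases before it. A match describes letters in the window and is not a mapped binding site.

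Library totals ran from 117868477 to 152600239 counts. Values are given in CPM, counts scaled to a library total of 1000000 after TMM normalisation. MUTE itself had 12.9, 10.8 and 8.26 CPM in MUTEv5#2, 24.5, 14.4 and 16.8 CPM in MUTEv5#5, 6.93, 5.42 and 5.32 CPM in MUTEPPP#3, and 6.10, 5.00 and 4.85 CPM in MUTE. These counts do not separate the transgene from the mute-3 locus. Against the MUTE line, the log2 fold change of this transcript was 1.00 in MUTEv5#2 (adjusted p = 0.032, edgeR). It was 1.81 in MUTEv5#5 (adjusted p = 0.0040, edgeR) and 0.15 in MUTEPPP#3 (adjusted p = 0.653, edgeR). The MUTEv5 lines thus differ from the reference in MUTE RNA level as well as in allele, and the part of that level was not tested. Shoot markers such as LHCB1.3 and root markers such as CASP1 were present in all 12 libraries. The summed level of the 4 shoot markers (LHCB1.3, LHCA3, RBCS1A and RBCS3B) was 42452 to 48768 CPM in MUTEv5#2, 49119 to 53142 CPM in MUTEv5#5, 44691 to 50044 CPM in MUTEPPP#3, and 55749 to 56498 CPM in MUTE, so every library of the other lines was below those of MUTE. Libraries correlated at a Pearson r of 0.973 to 0.992 within lines and 0.952 to 0.988 between lines, over genes, which are not independent replicates. MUTE replicate 1 stood apart from its line: it correlated at 0.978 and 0.973 with MUTE replicates 2 and 3, and at 0.986 with MUTEv5#5 replicate 1.

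Per kilobase of exon, the most abundant members were the small CDK-binding subunits CKS1 and CKS2, with means over the 12 libraries of 21.4 and 19.0 CPM per kb. The cytokinesis syntaxin KNOLLE followed at 14.7 CPM per kb, the APC activator CDC20-1 at 13.7 and the kinase CDKB2;1 at 12.8. The lowest were the A1-type cyclin CYCA1;2 at 1.40, the phragmoplast kinesin PAKRP1 at 1.33 and the B2-type cyclin CYCB2;1 at 1.22 CPM per kb. Among cyclins CYCB1;2 was highest at 8.36 CPM per kb, ahead of CYCA1;1 at 5.86, CYCB1;4 at 5.79 and CYCB2;3 at 5.60, and the means of these last 3 lay close together. CDC20-1 and CDC20-2 are near-identical tandem copies, so the split of reads between them is uncertain. The exons of 14 members overlap a neighbouring gene, CDKB2;2, BUB3.1, AUR1, POK2 and KNOLLE among them. Where the neighbour is on the opposite strand, reads cannot be told apart from the neighbour's without a stated strand setting. The neighbours of POK2 and CKS2 are on the same strand, where such a setting would not separate the reads. Between lines the members differed little: the highest line mean of a member was a median of 1.20 times its lowest, and 1.65 times in the most variable, CYCA1;2.

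**Figure D1:**
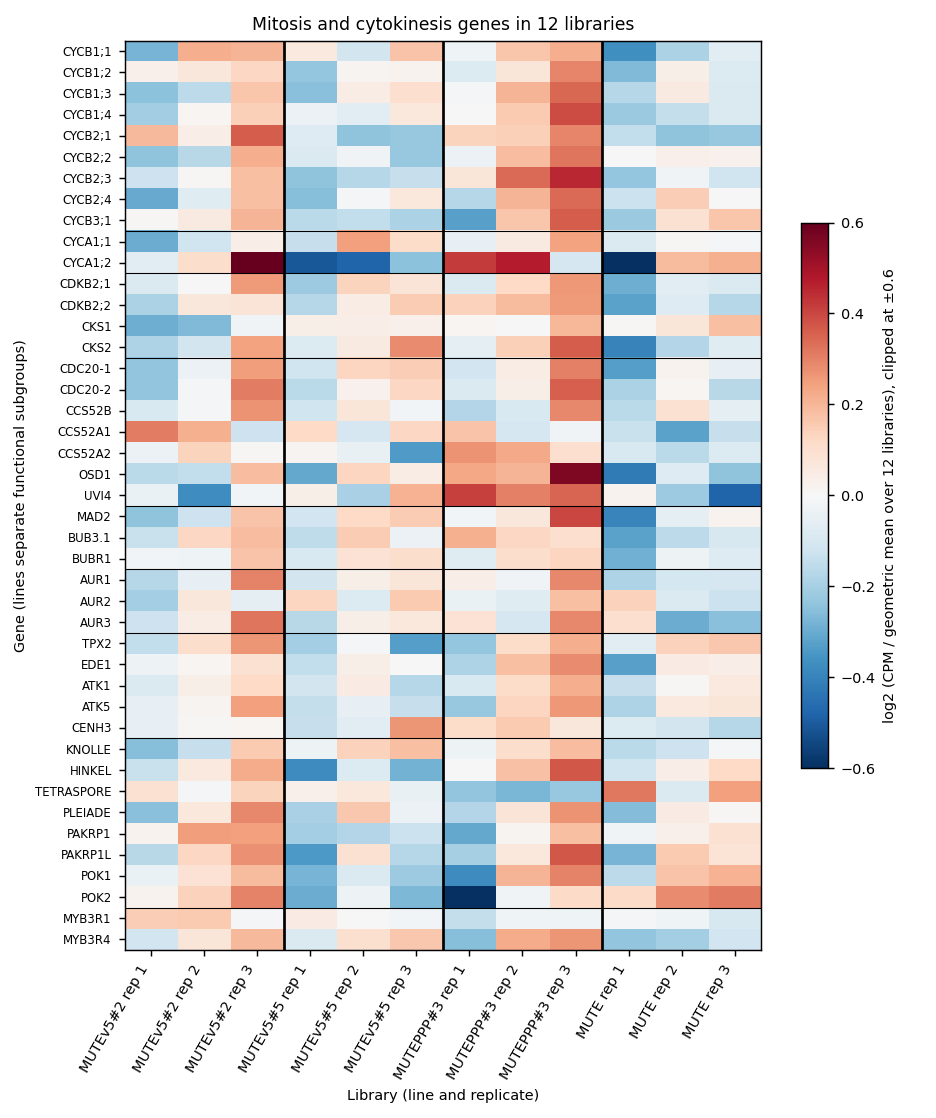
Level of each of the 43 genes in each of the 12 libraries, as log2 of CPM over the gene's geometric mean across libraries (colours clipped at 0.6 either way); columns are libraries grouped by line and rows are genes grouped by function. Library 3 of MUTEv5#2 and of MUTEPPP#3 was the highest of its line for 37 of the 43 genes each, and library 1 of each line was the lowest for most of them.

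MUTEPPP#3 was compared with MUTE to ask which mitotic transcripts differ when the basic region of MUTE carries prolines. Of the 43 members 6 rose and 1 fell in MUTEPPP#3 (edgeR quasi-likelihood test, Benjamini-Hochberg adjusted p under 0.05 over all genes). The genes that rose were the B2-type cyclins CYCB2;1 and CYCB2;3, the kinase CDKB2;2, the APC inhibitors OSD1 and UVI4, and the checkpoint gene BUB3.1. The gene that fell was TETRASPORE, a NACK2 kinesin best known from cytokinesis in male meiosis. The 7 genes called make 16.3% of the members, against 24.6% of all genes tested that were called in either direction, 10.7% higher and 13.9% lower. The member share was thus below the background of this comparison. DESeq2 called 9 members, or 20.9%, against 6954 of the 22636 genes tested, and added CYCB1;4 and CCS52A2 to the 7. The fold changes ran from -0.42 to 0.58 on the log2 scale, with a median of 0.20, against -0.0013 over all genes, and 36 of 43 were above 0. Beside this, the shoot markers had a median log2 fold change of -0.29 in MUTEPPP#3 against MUTE, with all 4 below 0 and 1 of 4 called, RBCS3B, and their part in the member values was not tested. The libraries of both lines did not overlap for 13 members that were higher and 1 that was lower in MUTEPPP#3, or 32.6% of members, against 40.7% of all genes (19.2% higher and 21.5% lower). In bulk RNA of whole seedlings, a change in the number of dividing cells and a change in RNA per cell cannot be told apart.

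Among the 9 B-type cyclins, the partners of mitotic kinases, 2 rose and none fell, and all 9 fold changes were above 0 (median 0.25). CYCB2;3 (AT1G20610) had 11.7, 14.1 and 15.2 CPM in MUTEPPP#3, against 9.47, 11.0 and 10.2 CPM in MUTE. The lowest MUTEPPP#3 library was above the highest MUTE library, and the log2 fold change was 0.42 (SE 0.11, adjusted p = 0.023, edgeR). CYCB2;1 (AT2G17620) had 2.20, 2.21 and 2.45 CPM in MUTEPPP#3, against 1.81, 1.69 and 1.71 CPM in MUTE. Its groups did not overlap either, and the edgeR log2 fold change was 0.40 with an SE of 0.13 and an adjusted p of 0.045. CYCB1;1, which is widely used as a marker of cells in G2 and M, had 6.51, 7.44 and 7.70 CPM in MUTEPPP#3, against 5.13, 5.81 and 6.33 CPM in MUTE. Its groups did not overlap, but its log2 fold change of 0.33 did not pass the test (95% interval -0.00129 to 0.66, adjusted p = 0.131, edgeR). CYCB1;4, also of the B1 type, had line means of 6.57 CPM per kb in MUTEPPP#3 and 5.18 in MUTE. It was not called in the main fit. DESeq2, RLE scaling, no filter, library totals only and the replicate block each called it.

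Neither A1-type cyclin was called. CYCA1;2, known as TAM from its role in meiosis, varied most within MUTE and within MUTEv5#2: it had 3.09, 3.20 and 2.16 CPM in MUTEPPP#3, against 1.37, 2.64 and 2.68 CPM in MUTE. The groups overlapped, and the 95% interval of the log2 fold change ran from -0.30 to 0.97 (edgeR). Of the CDKB2 and CKS genes, CDKB2;2 (AT1G20930), a plant-specific kinase of the G2 to M transition, rose. It had 11.2, 11.6 and 12.1 CPM in MUTEPPP#3, against 8.13, 9.63 and 9.02 CPM in MUTE. All MUTEPPP#3 libraries lay above all MUTE libraries, and the log2 fold change was 0.38 (edgeR, SE 0.11, adjusted p = 0.032). CKS1, which docks CDKs to their substrates, had 18.4, 18.3 and 21.0 CPM in MUTEPPP#3, against 18.3, 19.2 and 20.7 CPM in MUTE, with a 95% interval of the log2 fold change of -0.22 to 0.19.

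Of the 7 APC regulators 2 rose, and they were the pair of APC inhibitors. OSD1 (AT3G57860) keeps cyclins from early destruction and is best known for its part in the second meiotic division. It had 4.80, 4.70 and 6.03 CPM in MUTEPPP#3, against 3.04, 3.87 and 3.45 CPM in MUTE, and the groups did not overlap. Its log2 fold change of 0.58 was the highest of the 43 members in this comparison (SE 0.17, adjusted p = 0.027, edgeR). UVI4 (AT2G42260), its paralogue, holds back endoreduplication, in which cells copy DNA without dividing. It had 3.67, 3.40 and 3.51 CPM in MUTEPPP#3, against 2.80, 2.38 and 1.98 CPM in MUTE. The MUTEPPP#3 libraries were close together and above all MUTE libraries, with a log2 fold change of 0.57 (edgeR, SE 0.16 and adjusted p = 0.030). The 5 APC activators did not pass the test, although all 7 fold changes of the group were above 0. The activator CCS52A2 had line means of 3.22 CPM per kb in MUTEPPP#3 and 2.59 in MUTE. It was called by DESeq2, and by edgeR with library totals as the only scaling. CCS52A1, an activator that promotes endoreduplication, had 19.2, 15.9 and 16.8 CPM in MUTEPPP#3, against 15.6, 13.7 and 15.5 CPM in MUTE, with a log2 fold change of 0.22 (adjusted p = 0.225, edgeR).

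Of the 3 spindle checkpoint genes, which hold anaphase until every chromosome is attached, BUB3.1 (AT3G19590) rose. It had 14.7, 13.8 and 13.6 CPM in MUTEPPP#3, against 10.2, 11.4 and 11.9 CPM in MUTE, with no overlap and a log2 fold change of 0.33 (edgeR, SE 0.11 and adjusted p = 0.048). None of the Aurora kinases was called. AUR1, an alpha Aurora of the spindle and cell plate, had 11.9, 11.4 and 14.2 CPM in MUTEPPP#3, against 10.2, 10.8 and 10.8 CPM in MUTE. Its groups did not overlap, with a log2 fold change of 0.24 (adjusted p = 0.190, edgeR). None of the 5 spindle and centromere genes was called, and all 5 had 95% intervals within 1.5-fold either way. CENH3, the histone H3 of centromeres, had 4.90, 5.06 and 4.76 CPM in MUTEPPP#3, against 4.29, 4.21 and 4.03 CPM in MUTE, with a log2 fold change of 0.23 (adjusted p = 0.164, edgeR).

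Among the 8 phragmoplast and cytokinesis genes none rose and 1 fell, and the median log2 fold change was 0.04. TETRASPORE (AT3G43210) had 7.67, 7.48 and 7.71 CPM in MUTEPPP#3, against 11.3, 8.51 and 10.7 CPM in MUTE. The MUTEPPP#3 libraries were close together and below all MUTE libraries, with a log2 fold change of -0.42 (edgeR, SE 0.11 and adjusted p = 0.017). Its relative HINKEL, the NACK1 kinesin that drives phragmoplast expansion in somatic cells, had 17.7, 20.0 and 22.9 CPM in MUTEPPP#3, against 16.3, 18.2 and 19.2 CPM in MUTE. These groups overlapped, with a log2 fold change of 0.17 (95% interval -0.11 to 0.46). POK2, a kinesin that marks the cortical division site, had 11.8, 18.4 and 20.2 CPM in MUTEPPP#3, against 20.2, 22.7 and 23.2 CPM in MUTE, and its 11.8 CPM in MUTEPPP#3 library 1 was the lowest of all 12 libraries. Neither MYB3R factor was called. MYB3R4, an activator of MSA-containing genes, had 9.23, 12.9 and 13.3 CPM in MUTEPPP#3, against 9.37, 9.57 and 10.2 CPM in MUTE, with a log2 fold change of 0.28 (adjusted p = 0.163, edgeR).

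**Figure D2:**
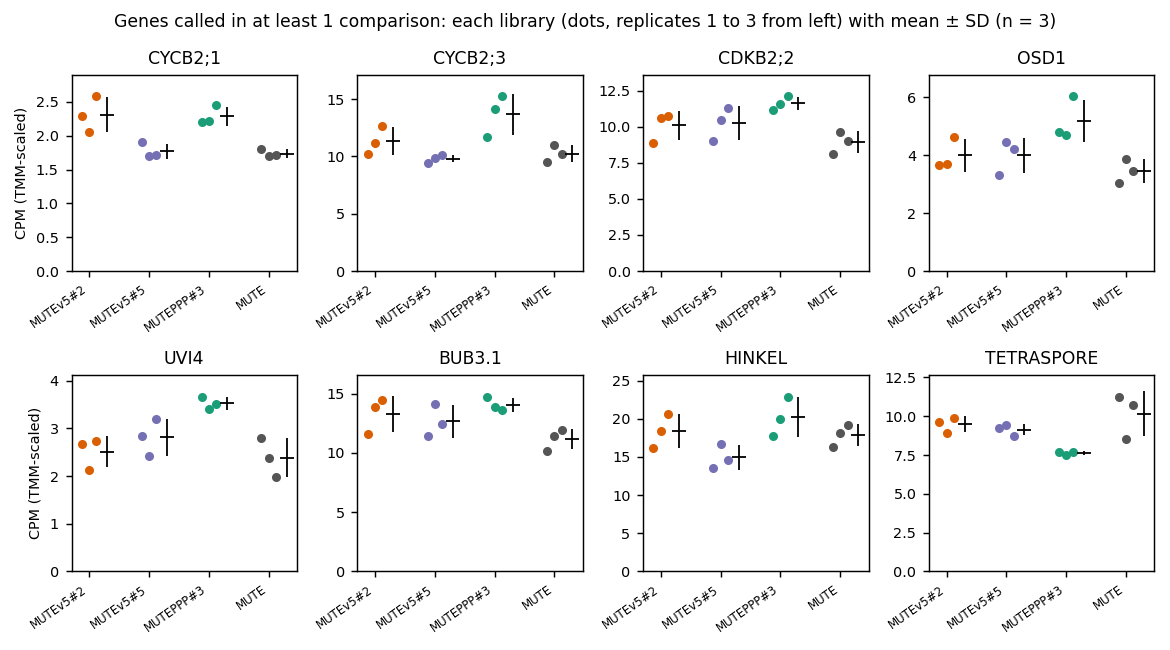
CPM in each library for the 8 genes called in at least 1 of the 6 comparisons, with the mean ± SD of 3 libraries beside the dots. MUTEPPP#3 libraries lie above all MUTE libraries for the 6 genes that rose and below them for TETRASPORE, while HINKEL differs between MUTEPPP#3 and MUTEv5#5.

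Most of these calls missed the threshold when certain single libraries were left out, although the fold changes kept their direction. Without MUTE replicate 1, 2 or 3 the comparison called 1, 4 and 0 members, and without MUTEPPP#3 replicate 2 or 3 it called 1 each, against 7 with all libraries. Of all genes 18.8%, 19% and 16.6% were called in the first 3 of these fits, and 13.2% and 17.6% in the other 2. The member median, 0.20 with all libraries, was 0.097 without MUTEPPP#3 replicate 3 and 0.26 without MUTEPPP#3 replicate 1. Over the 12 fits that each left out 1 library, the log2 fold change ran from 0.35 to 0.45 for CYCB2;1, 0.34 to 0.52 for CYCB2;3, 0.34 to 0.46 for CDKB2;2, 0.46 to 0.69 for OSD1, 0.47 to 0.72 for UVI4, 0.30 to 0.40 for BUB3.1 and -0.51 to -0.31 for TETRASPORE. The clock index, the mean log2 CPM of CCA1, LHY, PRR9 and RVE8 minus that of TOC1, ELF4, GI, LUX and PRR5, was -0.50, -3.81 and -5.28 in MUTEPPP#3, against 3.75, 0.25 and 0.88 in MUTE. With that index as a covariate none of the 7 calls remained and the member median was -0.14. The fold change of UVI4 was then higher, at 0.80 (adjusted p = 0.053, edgeR), and those of CYCB2;1 and TETRASPORE were close to the values without it, at 0.37 and -0.33. Those of the other 4 were smaller, at 0.11 for CYCB2;3, 0.17 for CDKB2;2, 0.17 for OSD1 and 0.19 for BUB3.1. POK1, POK2 and PAKRP1L fell in that fit, or 6.98% of members, against 8.92% of all genes that fell. Line and index overlap little here, so their shares in the calls cannot be told apart. With library totals as the only scaling, 19 members rose and none fell. These make 44.2% of the members, above the 29.4% of all genes called in that fit, 21.2% of them higher. The median of all genes then stood at 0.17 on the log2 scale, and TETRASPORE stood at -0.25 (adjusted p = 0.123, edgeR).

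**Figure D3:**
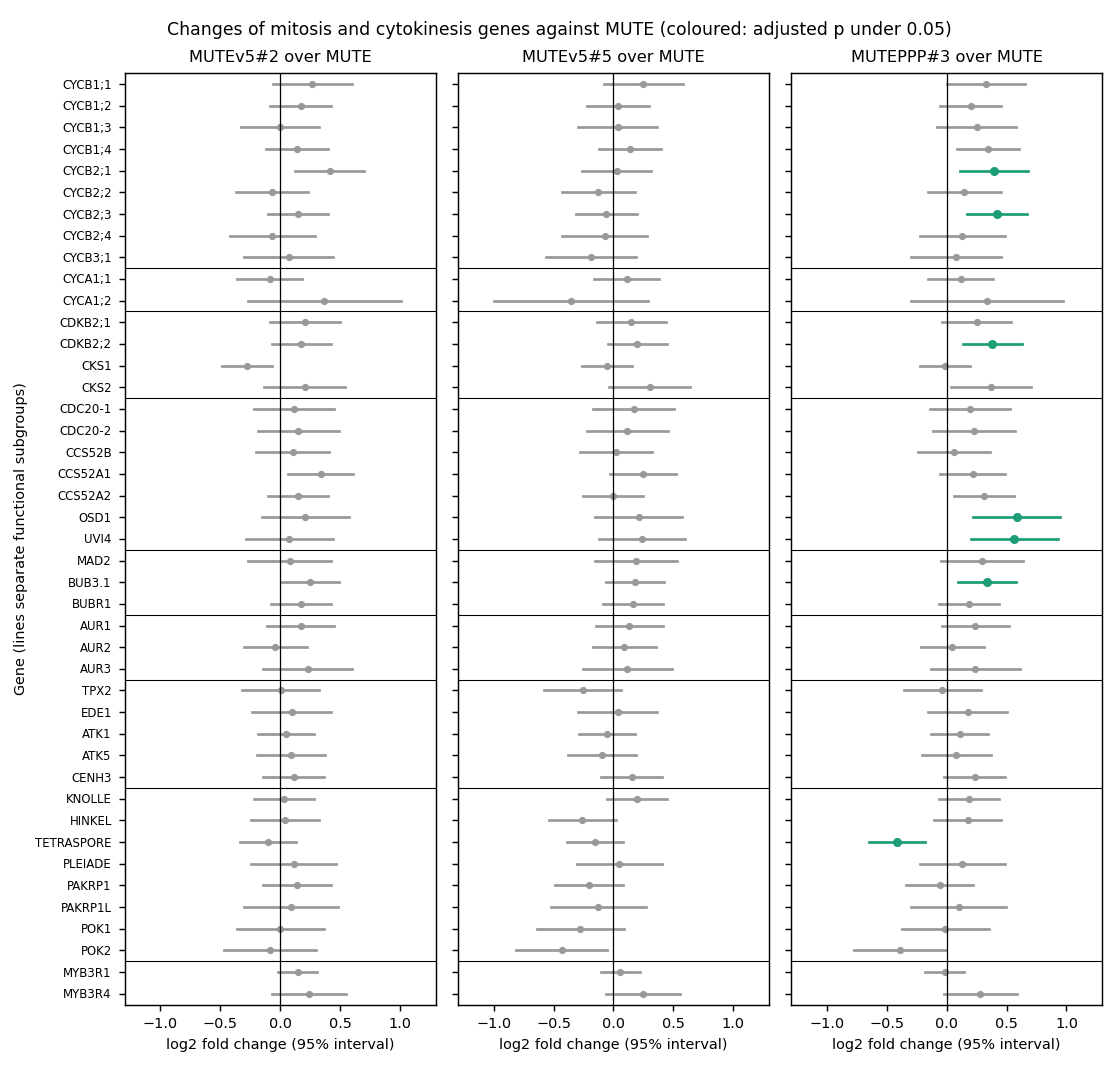
Log2 fold change of each member against MUTE with its 95% interval, for MUTEv5#2, MUTEv5#5 and MUTEPPP#3; coloured points passed the adjusted threshold. The 7 calls are all in MUTEPPP#3, and most intervals in every panel include 0. The 3 panels share the MUTE libraries.

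In MUTEv5#2 none of the 43 members passed the test against MUTE, where 5.04% of all genes were called. At an unadjusted p under 0.05 there were 4 members, against 22.8% of all genes, and DESeq2 called 1, CYCB2;1, against 11.6% of all genes. The median log2 fold change was 0.11, with 34 of 43 above 0, and the range was -0.28 to 0.41. That median depended on single libraries: it was 0.013 without MUTEv5#2 replicate 3 and 0.18 without MUTEv5#2 replicate 1. For 38 members the 95% interval stayed within 1.5-fold either way, and for 42 within 2-fold. CYCB2;1 had 2.29, 2.06 and 2.58 CPM in MUTEv5#2, against 1.81, 1.69 and 1.71 CPM in MUTE, with no overlap and a log2 fold change of 0.41 (edgeR, SE 0.13 and adjusted p = 0.089). CKS1 was at the other end, with 14.9, 15.2 and 18.0 CPM in MUTEv5#2, against 18.3, 19.2 and 20.7 CPM in MUTE. Its log2 fold change was -0.28 (SE 0.094, adjusted p = 0.112, edgeR), and it was the only member whose MUTEv5#2 libraries all lay below those of MUTE, as held for 16.1% of all genes. For 6 members, CYCB2;1 among them, all MUTEv5#2 libraries lay above those of MUTE. The share of all genes higher in this way is not given here. CCS52A1 had 21.1, 19.8 and 15.7 CPM in MUTEv5#2, against 15.6, 13.7 and 15.5 CPM in MUTE (log2 fold change 0.34, adjusted p = 0.136, edgeR). CYCA1;2 had 2.20, 2.49 and 3.93 CPM in MUTEv5#2, against 1.37, 2.64 and 2.68 CPM in MUTE, and its groups overlapped (log2 fold change 0.37, adjusted p = 0.485, edgeR).

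In MUTEv5#5 none of the members was called against MUTE, where 1.04% of all genes were. There was 1 member at an unadjusted p under 0.05, POK2, against 16.2% of all genes, and DESeq2 called none, against 5.08% of all genes. The median log2 fold change was 0.05, with 27 of 43 above 0, and all 43 intervals stayed within 2-fold, 38 of them within 1.5-fold. POK2 had 15.2, 18.3 and 15.5 CPM in MUTEv5#5, against 20.2, 22.7 and 23.2 CPM in MUTE, with no overlap and a log2 fold change of -0.43 (edgeR, SE 0.17 and adjusted p = 0.249). It passed the threshold with the clock index as a covariate. The phragmoplast genes had a median of -0.18 in this line, with 6 of 8 below 0, against 0.18 for the CDKB2 and CKS genes and 0.17 for the APC regulators. MYB3R4 had 10.4, 11.8 and 12.4 CPM in MUTEv5#5, against 9.37, 9.57 and 10.2 CPM in MUTE, and the groups did not overlap (log2 fold change 0.25, adjusted p = 0.421, edgeR).

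Stomatal lineage markers differed far more between the MUTEv5 lines and MUTE than the members did. The early lineage markers SPCH, TMM, BASL, EPF2 and POLAR, 5 of 5, rose in MUTEv5#2 and in MUTEv5#5 against MUTE, with median log2 fold changes of 1.29 and 1.53. The guard cell markers FAMA, TGG1, ALMT12, SLAC1 and SCAP1, 5 of 5, fell in both, with medians of -0.90 and -1.46. Against those, no mitosis or cytokinesis member was called in either line. The libraries are bulk RNA of whole seedlings, so member levels within the stomatal lineage alone were not measured. In MUTEPPP#3 against MUTE the same markers differed less: 1 of 5 early lineage markers rose, EPF2 (median 0.26), and of the 5 guard cell markers SLAC1 rose and ALMT12 fell (median -0.07), beside the member median of 0.20. Meristem markers did not move as a list in MUTEv5#2. There PLT2, a root meristem factor, rose at a log2 fold change of 0.99 and the other 5 tested were not called. None of the 6 was called in MUTEv5#5 or MUTEPPP#3. In MUTEPPP#3, however, all 6 fold changes were above 0, against 3 of 6 in each MUTEv5 line. They ran from 0.014 to 0.65, with a median of 0.41 and a median SE of 0.28. Their part in the member values was not tested.

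Between the MUTEv5 lines no member was called in MUTEv5#5 over MUTEv5#2, where 0.0663% of all genes were. There were 5 members at an unadjusted p under 0.05, against 10.8% of all genes, and DESeq2 called none, against 1.33% of all genes. The median was -0.06 and 13 of 43 were above 0. Without MUTEv5#2 replicate 3 the median was 0.05, and without MUTEv5#2 replicate 1 it was -0.13. CYCA1;2 had 1.62, 1.66 and 1.95 CPM in MUTEv5#5, against 2.20, 2.49 and 3.93 CPM in MUTEv5#2, which did not overlap (log2 fold change -0.72, adjusted p = 0.415, edgeR). CYCB2;1 had 1.90, 1.70 and 1.71 CPM in MUTEv5#5, against 2.29, 2.06 and 2.58 CPM in MUTEv5#2, also without overlap (log2 fold change -0.39, adjusted p = 0.335, edgeR). Its MUTEv5#5 libraries thus sat at the level of MUTE, and its MUTEv5#2 libraries at that of MUTEPPP#3.

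MUTEPPP#3 over MUTEv5#2 also gave no member called, where 2.47% of all genes were. There were 6 members at an unadjusted p under 0.05, against 21.2% of all genes, and DESeq2 called 1, UVI4, against 9.38% of all genes. UVI4 had 3.67, 3.40 and 3.51 CPM in MUTEPPP#3, against 2.68, 2.13 and 2.73 CPM in MUTEv5#2, with no overlap and a log2 fold change of 0.49 (edgeR, SE 0.16 and adjusted p = 0.123). MUTEPPP#3 over MUTEv5#5 called 2 members, both higher in MUTEPPP#3, or 4.65% of members, where 15.7% of all genes were called in either direction and 6.32% were called higher. CYCB2;3 had 11.7, 14.1 and 15.2 CPM in MUTEPPP#3, against 9.43, 9.90 and 10.1 CPM in MUTEv5#5, and the log2 fold change was 0.48 (SE 0.11, adjusted p = 0.020, edgeR). HINKEL (AT1G18370) had 17.7, 20.0 and 22.9 CPM in MUTEPPP#3, against 13.6, 16.7 and 14.5 CPM in MUTEv5#5, and the log2 fold change was 0.43 (SE 0.13, adjusted p = 0.043, edgeR). Neither gene overlapped between these lines. The count of 2 fell to 0 with the clock index as a covariate, and to 0 without MUTEv5#5 replicate 1, MUTEPPP#3 replicate 2 or MUTEPPP#3 replicate 3. It was 1 without MUTEv5#2 replicate 2 or MUTEv5#5 replicate 3.

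Within lines the members moved together from library to library. Their summed level was 443, 483 and 538 CPM in libraries 1, 2 and 3 of MUTEv5#2, 437, 486 and 480 CPM in MUTEv5#5, 451, 505 and 563 CPM in MUTEPPP#3, and 426, 473 and 474 CPM in MUTE. Library 1 was the lowest of its line for 37 members in MUTEv5#2, 29 in MUTEv5#5, 31 in MUTEPPP#3 and 34 in MUTE. Over all genes tested, library 1 was the lowest of its line for 32.6%, 36.8%, 38.4% and 40.8% of genes in the same order of lines. Library 3 was the highest for 37 members in MUTEv5#2, 22 in MUTEv5#5, 37 in MUTEPPP#3 and 19 in MUTE, against 38.4%, 28.7%, 38.0% and 28.5% of all genes in those lines. The line means of the sum were 488 ± 47.8, 467 ± 26.2, 507 ± 56.0 and 458 ± 27.5 CPM (SD, n = 3) in MUTEv5#2, MUTEv5#5, MUTEPPP#3 and MUTE. The ranges overlapped between lines, and at each replicate number the MUTE library had the lowest sum of the 4, although the labels do not say what libraries of the same number share.

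Library 1 was the lowest in all 4 lines for 22 members and in 3 lines for 11. It was the lowest in no line for CCS52A1 and UVI4, regulators tied to endoreduplication, and TETRASPORE, and in 1 line for CYCB2;1, CCS52A2, AUR2 and MYB3R1. CCS52A1 was highest in library 1 of MUTEv5#2, at 21.1 CPM, where the sum of the members was lowest, and MYB3R1 differed little between libraries, from 24.1 to 29.7 CPM over all 12. The clock index was highest in library 1 of every line: 1.25, 1.00 and -0.23 in libraries 1 to 3 of MUTEv5#2, 3.16, -0.14 and 2.11 in MUTEv5#5, -0.50, -3.81 and -5.28 in MUTEPPP#3, and 3.75, 0.25 and 0.88 in MUTE. Library 1 thus had the highest index and the lowest summed member level in all 4 lines. The share of ribosomal RNA and organelle counts was 1.10, 2.50 and 2.92% in MUTEv5#2, 1.11, 1.47 and 1.53% in MUTEv5#5, 2.12, 0.575 and 1.18% in MUTEPPP#3, and 1.01, 1.28 and 0.397% in MUTE. In MUTEv5#2 this share had the same order over libraries as the member sum, and in the other 3 lines the library with the highest sum did not have the highest share. Their part in the spread between libraries was not tested.

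**Figure D4:**
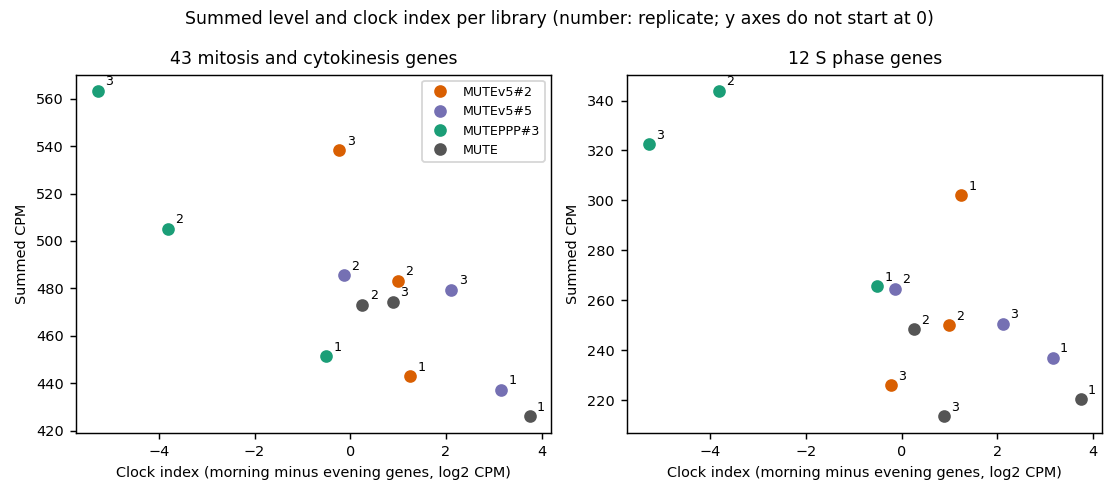
Summed CPM of the 43 mitosis and cytokinesis genes (left) and of 12 S phase genes (right) against the clock index of each library, with colours for lines and numbers for replicates. Library 1 of each line has the highest index and the lowest member sum of its line, while the S phase sum of MUTEv5#2 is highest in library 1, at 302 CPM.

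Other genes of the pathway were read from lists of further mitosis genes (58 tested of 59) and S phase genes (12). None of the further mitosis genes was called in MUTEv5#2 or MUTEv5#5 against MUTE, and in MUTEPPP#3 there were 3 that rose and 3 that fell, or 10.3%, against 24.6% of all genes called, with a median of 0.11. Those that rose were CYCA2;1, an A2-type cyclin (log2 fold change 0.61), WEE1, a kinase that restrains CDKs (0.54), and APC11, the catalytic RING subunit of the APC (0.52). Those that fell were SMR1, an inhibitor of CDKs (-0.78), and the microtubule-associated proteins MOR1 (-0.35) and CLASP (-0.40). CLASP had 84.9, 81.7 and 84.1 CPM in MUTEPPP#3, against 111, 105 and 116 CPM in MUTE, without overlap. CLASP and MOR1 were called in the same direction with the clock index as a covariate (adjusted p = 0.045 and 0.018, edgeR). None of the 7 members called without the index was called with it, while 3 other members were called lower.

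Of the S phase genes 6 of 12 rose in MUTEPPP#3 against MUTE, none fell, and all 12 fold changes were above 0, with a median of 0.43. The share that rose was 50%, against 10.7% of all genes. They were the replication clamps PCNA1 (log2 fold change 0.70) and PCNA2 (0.57), the origin factors ORC2 (0.71) and CDT1A (0.48), the helicase subunit MCM4 (0.38) and TSO2 (0.48), a subunit of ribonucleotide reductase. PCNA1 had 21.5, 24.6 and 23.4 CPM in MUTEPPP#3, against 13.1, 15.2 and 14.4 CPM in MUTE, without overlap. With the clock index as a covariate none of these 6 was called, and the list median was 0.26. No S phase gene was called in MUTEv5#2 or MUTEv5#5 against MUTE. The S phase and mitotic sums did not run together in MUTEv5#2, where the S phase sum was 302, 250 and 226 CPM in libraries 1, 2 and 3 and the member sum 443, 483 and 538 CPM.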

How the data were processed

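Messenger RNA of 12 libraries was prepared with a stranded TruSeq kit, per the labels' protocols. The authors deposited read counts per gene for each library, as whole numbers. The submitters' processing notes name the build TAIR10, the aligners HISAT2 2.1.0 and Bowtie2 2.3.4.1, and also Trimmomatic 0.38, FastQC, DESeq2 and StringTie 2.1.3b. The counting tool and its strand setting are not given there. The deposited table held 23098 entries, of which 27 named no gene (at most 5.96e-04% of a library) and were left out. Its lowest value was 1, and 80 genes stood at 1 in all 12 libraries. Genes without reads in some library may be absent from it, or 1 may have been added to the values. The processing notes do not say which.

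Genes were tested with edgeR 4.0.16 (R 4.3.3; glmQLFit, glmQLFTest) on the counts as deposited, with TMM scaling, filterByExpr (435 genes left out), all 12 libraries in 1 fit of 4 line means, and Benjamini-Hochberg adjustment over 22636 genes in each of 6 comparisons. The threshold was 0.05, and edgeR's common biological coefficient of variation came to 0.215. SE and 95% intervals are those of log2 fold changes. Alternatives were DESeq2 1.42.0, limma-voom (limma 3.58.1), RLE scaling, library totals only, no filter, at least 10 counts in 6 libraries, only the compared lines, a replicate block, the clock index or the ribosomal and organelle share as a covariate, and each library left out. Same-numbered libraries of MUTEv5#5 and MUTE deviated together from their line means (r = 0.574, 0.414 and 0.323 over genes). The labels do not state a pairing, and the main fit used none. In the other comparisons not every pair exceeded 0.1.

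Members were matched by locus through the gene identifiers, and sequences and positions come from RefSeq TAIR10.1. Members, lists and tests were chosen with earlier results of these data known. Every member could be named; full values were given for members called in any comparison and, per functional group, for the member with the smallest p against MUTE, and for further genes chosen after their values were seen (CYCB1;1, CKS1, CCS52A1, POK2). Further mitosis and S phase genes were named where called against MUTE. WUS and MYB3R2 had no entry in the table used here.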

Additional observations from a re-analysis of the deposited data

Results flagged for a closer look

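For 2 members the change over MUTE differed between MUTEPPP#3 and MUTEv5#5 by a test of the difference itself, which equals the comparison of those lines. For CYCB2;3 the difference was 0.48 on the log2 scale (SE 0.11, adjusted p = 0.020, edgeR), from a change over MUTE of 0.42 in MUTEPPP#3 and of -0.06 in MUTEv5#5. For HINKEL the difference was 0.43 (SE 0.13, adjusted p = 0.043, edgeR), from 0.17 in MUTEPPP#3 and -0.26 in MUTEv5#5, neither of which passed the test on its own. All 3 MUTEPPP#3 libraries were above all 3 MUTEv5#5 libraries for both genes. With the clock index as a covariate the differences were 0.16 for CYCB2;3 and 0.04 for HINKEL, and neither was called.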

How the results depend on the processing

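Each line had 3 libraries, and the lowest count of a member was 187. In MUTEPPP#3 over MUTE, where 7 members were called, library totals as the only scaling gave 19 (the median of all genes moved to 0.17), only the compared lines 1, the clock index covariate 3 (all lower) and the ribosomal and organelle share covariate 4; leaving out a library gave 0 to 7. In MUTEPPP#3 over MUTEv5#5, where 2 were called, DESeq2 gave 4, only the compared lines 0, the clock covariate 0 and the share covariate 1, and leaving out a library gave 0 to 3. Where none was called, MUTEv5#2 over MUTE gave 1 with DESeq2, 2 with library totals and 2 with the clock covariate; MUTEv5#5 over MUTE gave 1 with the clock covariate; and MUTEPPP#3 over MUTEv5#2 gave 1 with DESeq2 and 1 with the clock covariate. Leaving out any library left these 3 comparisons and MUTEv5#5 over MUTEv5#2 at 0. With fewer samples in the fit the spread is less well known; otherwise the cause was not tested. The replicate block gave 10 called members in MUTEPPP#3 over MUTE (8 higher, 2 lower), 6 of them shared with the 7, CYCB2;1 reaching an adjusted p of 0.054 (edgeR), and the same counts as without it in the other comparisons. MYB3R4 in MUTEPPP#3 over MUTE changed direction, to -0.10, with the clock covariate. For 13 fold changes of named members, the alternative fits were counted together. In 214 fits direction and side of the threshold were kept, in 67 a call was lost, in 4 one was gained and in 1 the direction reversed. The 214 include fits of CYCA1;2, AUR1, CENH3 and MYB3R4, which had no call to lose. Among the 12 fits without 1 library, in MUTEPPP#3 over MUTE, BUB3.1 was called in 3 and CYCB2;1 in 4, and OSD1 and TETRASPORE in 9 each. These include fits without a MUTEv5 library, which keep all libraries of the compared lines. BUB3.1 and CYCB2;1 were called only in such fits. Of the fits without a MUTE or MUTEPPP#3 library, OSD1 was called without MUTE replicate 2, MUTEPPP#3 replicate 1 or MUTEPPP#3 replicate 2. TETRASPORE was called without MUTE replicate 2, MUTEPPP#3 replicate 1 or MUTEPPP#3 replicate 3.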
